A study of Mus musculus with 35 samples.

Results

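Injured mice that received IL-4 MSCs were compared with injured mice that received PBS, with tissue taken 2 days after the injection. The comparison used the 5 libraries labelled IL4.1WK and the 5 labelled PBS.1WK, which are 10 of the 34 libraries with counts. IL-4 MSCs are mesenchymal stromal cells, sold by a vendor as primary cells of C57BL/6N mice, that were transfected with synthetic IL-4 mRNA and harvested 10 hours later. All 10 mice were male C57BL/6NCrl mice, 8 to 9 weeks old at the start, and all had a closed head injury and an injection into the left hippocampus 5 days after it. IL4.1WK mice received 150000 transfected cells and PBS.1WK mice received only phosphate-buffered saline. Set beside them were 5 mice given the same number of naive MSCs (MSC.1WK), and the IL4.3WK and PBS.3WK mice, 5 and 4 in number, whose tissue was taken 16 days after injection. Each library came from 1 mouse, and in the labels the number before the dash was the same for all mice of a group and differed between groups, so anything that went with it cannot be told apart from the treatment. By the labels a strip of tissue of 2 mm around the injection site was taken, whereas the study's methods give a larger width per hemisphere. The tissue was sequenced whole, so fewer or more cells of a type and less or more RNA per cell cannot be told apart in any value below.

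Interleukin-4 is a type 2 cytokine that binds a receptor built on IL-4Rα and activates the transcription factor STAT6. In macrophages and microglia this pathway is known to induce arginase 1, chitinase-like proteins, resistin-like molecules, the mannose receptor CD206 and chemokines of the eotaxin kind, a state called alternative or M2-like activation. Transfected mRNA gives only a passing supply of its protein. The question of the comparison was which transcripts of injured brain differed 2 days after such cells were delivered.

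The 10 libraries held between 29838423 and 40748040 estimated counts. Levels are given as CPM, which are counts scaled to the size of the library, with the SD over 5 mice. The comparison was fitted with edgeR's quasi-likelihood test over 17131 genes in 1 fit of all 34 libraries, and a gene passed the test when its Benjamini-Hochberg adjusted p was under 0.05. In the first principal component of all tested genes, which held 38.31% of the variance of the 15 libraries at 1 week, the IL-4 MSC mice stood apart from all PBS and MSC mice.

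The deposited label calls the tissue left cortex, whereas the injections went into the hippocampus. Genes typical of striatal neurons were higher in IL-4 MSC than in PBS mice in all 17 fitted values, with a median log2 fold change of 0.80 and a summed level of 744.4 to 1363 CPM against 615.4 to 775.1 CPM, but 0 of 17 passed the test, against 12 with only the 10 libraries in the fit. Genes typical of hippocampal neurons had a summed level of 295.6 to 316.3 CPM in IL-4 MSC mice and 380.5 to 442 CPM in PBS mice, with a median of -0.51. Of these 12 genes 1, the kainate receptor gene Grik4, passed the test and was lower, and 7 were lower with only the 10 libraries in the fit. Thalamic genes (0 of 10 past the test, median -0.13) and choroid plexus genes (0 of 12, median 0.03, summed level 700.4 to 2091 CPM against 832.3 to 1397 CPM) overlapped between the groups, as did the summed level of cortical layer genes (1 of 12 higher, Cux1 at 0.29, lost without any one of 9 of the 10 mice, median 0.08). The striatal genes were also 0.64 above PBS in the median in MSC mice. The part of tissue composition in the results below was not tested beyond a fit with the striatal score as a covariate, in which 1789 genes were higher and 806 lower.

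Relative to PBS mice, 1918 genes (11.2% of those tested) passed the test as higher and 1056 (6.16%) as lower. The rises were larger than the falls. The higher genes had a median log2 fold change of 0.54, a 1.45-fold difference, whereas the lower genes had a median of -0.16. A change of 1 or more on the log2 scale was reached by 484 of the higher and 7 of the lower genes, and of at least 3 by 63 and 2. Higher genes were mostly of low level in PBS, with a median of 8.34 CPM, and lower genes of high level, with a median of 114 CPM. The values of all 5 IL-4 MSC mice lay above those of all 5 PBS mice in 1649 genes, 9.63% of those tested, and below them in 900, or 5.25%, against 467 below when CPM were scaled by library totals without TMM factors. The count of lower genes depended on the scaling: with each of the 34 libraries in turn as the reference of the TMM factors, a choice made after the data were seen, 538 to 1357 genes were lower, 19.68% to 42.37% of the calls, and 1846 to 2196 were higher. Without IL-4 MSC mouse 2, 560 genes were lower.

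**Figure D1:**
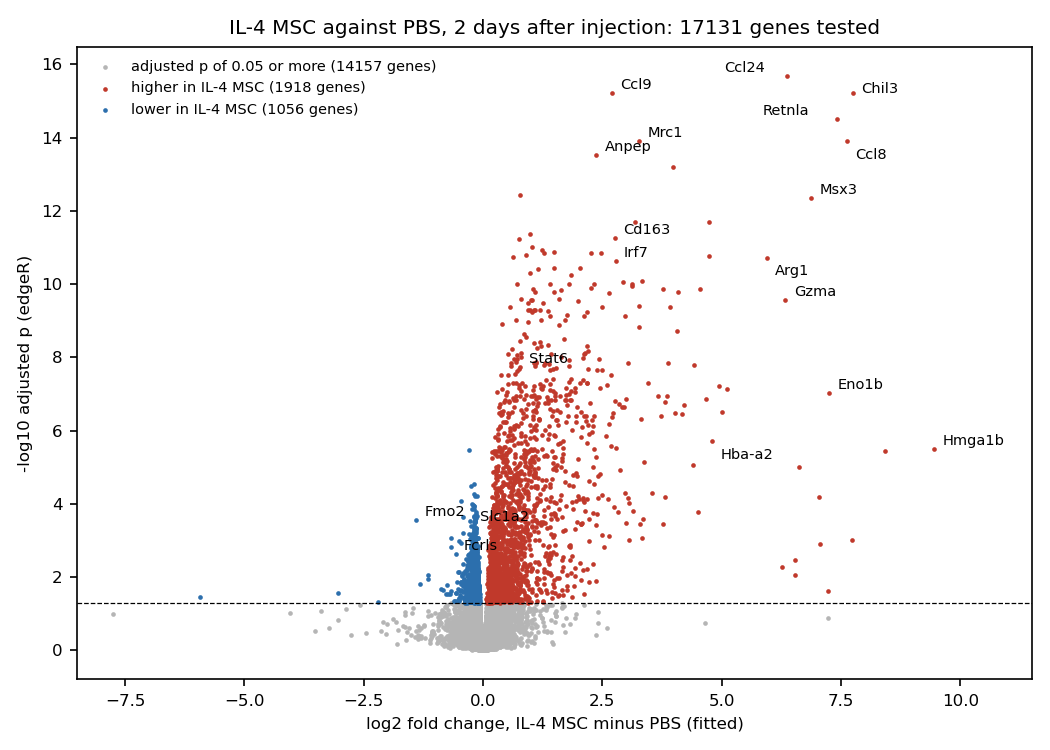
The plot sets the fitted log2 fold change of each of 17131 genes (horizontal axis, IL-4 MSC minus PBS) against the -log10 of its adjusted p (vertical axis), with the 1918 higher genes in red, the 1056 lower genes in blue, the other genes in grey and the threshold of 0.05 as a dashed line. The red points reach far to the right, where Chil3, Ccl8, Retnla and Ccl24 lie at 6.37 to 7.74, whereas nearly all blue points lie within 1 of 0. Fitted values of genes with no count in any PBS mouse, such as Hmga1b, depend on the prior count of the fit.

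The delivered gene was near the limit of detection. Il4 (ENSMUSG00000000869) was counted 4, 7, 10, 12 and 9 times in mice given IL-4 MSCs, 6, 6, 4, 2 and 2 in PBS and 5, 9, 5, 4 and 4 in MSC. The groups overlapped, with means of 0.245 ± 0.0874 CPM (SD, n = 5) in IL-4 MSC and 0.117 ± 0.056 CPM in PBS mice (two-sided exact permutation p = 0.0317). Il4 did not pass the filter on low counts, and a synthetic mRNA need not be counted as the mouse transcript, so this gene checks the labels only weakly.

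The genes of the receptor chain and of the transcription factor of the IL-4 signal were clearly higher. Il4ra, which encodes the receptor chain that binds IL-4, lies on GRCm38 chromosome 7 from 125552120 to 125579474. It had 38.2, 34.9, 43.9, 38.7 and 30.7 CPM in the IL-4 MSC mice and 10.3, 12.7, 14.4, 11.2 and 11.9 CPM in the PBS mice. The groups did not overlap, and the log2 fold change was 1.62 (SE 0.22, adjusted p = 2.19e-06). Stat6 (chromosome 10, 127642986 to 127660957) had 20.7, 23.4, 20.7, 22.6 and 20.2 CPM against 12.7, 13.1, 13.8, 12.5 and 10.4 CPM. It too was separated between the groups, though less widely, at 0.78 on the log2 scale (SE 0.08, adjusted p = 1.82e-08).

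Of 17 tested genes of IL-4 receptor and STAT6 signalling, 11 were higher and 0 lower, with a median log2 fold change of 0.55, where the median over all tested genes was -0.00419. Among them were Il2rg (1.96), the common gamma chain shared by several cytokine receptors, Il13ra1 (0.46), the second chain of the type II receptor, and Jak3 (0.54), the kinase bound to the gamma chain. Feedback genes rose as well. Socs1, a suppressor of cytokine signalling, had 3.21 ± 0.782 CPM against 1.05 ± 0.149 CPM (log2 fold change 1.61, SE 0.20, adjusted p = 3.09e-07), Cish had 0.55, and Il13ra2, a decoy receptor for IL-13, had the highest value of the list at 2.49. Jak1 (-0.03) and Tyk2 (0.10) did not pass the test. Values of the 17 genes ran from -1.08 to 2.49 with 13 above 0, and 0 to 1 were lower when a mouse was left out.

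Most effectors of alternative activation were higher in IL-4 MSC than in PBS mice by up to 7.74 on the log2 scale. Of 27 tested genes on this list 20 were higher and 0 lower, with a median log2 fold change of 1.81 and values from -0.31 to 7.74. Chil3 (chromosome 3, 106147554 to 106167564), which encodes the chitinase-like protein Ym1, had 182, 144, 95.2, 198 and 103 CPM in the IL-4 MSC mice and 0.507, 0.673, 1.06, 0.503 and 0.616 CPM in the PBS mice. The lowest IL-4 MSC mouse thus stood far above the highest PBS mouse, and the log2 fold change was 7.74 (SE 0.37, adjusted p = 6.17e-16). Its estimated counts were not all whole, because reads shared with similar genes are divided, and its neighbour in sequence Chil4 rose by 4.50.

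Arg1 (chromosome 10, 24915221 to 24927484) encodes arginase 1, which turns arginine into ornithine and urea. Its values were 164, 148, 163, 147 and 106 CPM in IL-4 MSC and 0.317, 2.98, 6.68, 1.26 and 0.616 CPM in PBS mice. The PBS mice differed among themselves more than the IL-4 MSC mice did in relative terms, but no values overlapped, and the log2 fold change was 5.94 (SE 0.45, adjusted p = 1.96e-11). Retnla (chromosome 16, 48842551 to 48844461), which encodes the resistin-like molecule Fizz1, had 7.12, 11.9, 8.38, 6.29 and 9.73 CPM against 0.0951, 0.024, 0.0321, 0.0628 and 0.0293 CPM. All PBS values of Retnla were at or below the level of 3 counts, and the fitted log2 fold change was 7.42 (SE 0.38, adjusted p = 3.15e-15). Its estimated counts were whole in only 5 of 10 libraries, because reads shared with similar genes are divided.

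Mrc1 (chromosome 2, 14229392 to 14332057), which encodes the mannose receptor CD206, had 103, 81.9, 89.4, 101 and 82.9 CPM in IL-4 MSC and 8.71, 9.42, 9.28, 10 and 9.97 CPM in PBS mice. Within each group the mice lay close together, and the log2 fold change was 3.27 (SE 0.18, adjusted p = 1.25e-14). Cd163, the scavenger receptor for hemoglobin bound to haptoglobin, had 32.6, 31, 42.5, 41.8 and 30.8 CPM against 4.69, 5, 5.11, 5.75 and 5.86 CPM (2.76, SE 0.19, adjusted p = 5.41e-12). Pdcd1lg2, the PD-1 ligand PD-L2, had 4.2 ± 0.815 CPM against 0.156 ± 0.1 CPM (4.74, SE 0.32, adjusted p = 2.03e-12). Alox15 (4.07), the lectin genes Mgl2 (3.98) and Clec10a (2.12), Folr2 (1.84) and Tgm2 (1.81) rose too. Egr2 (0.23), F13a1 (0.27) and Msr1 (0.76) did not pass the test.

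**Figure D2:**
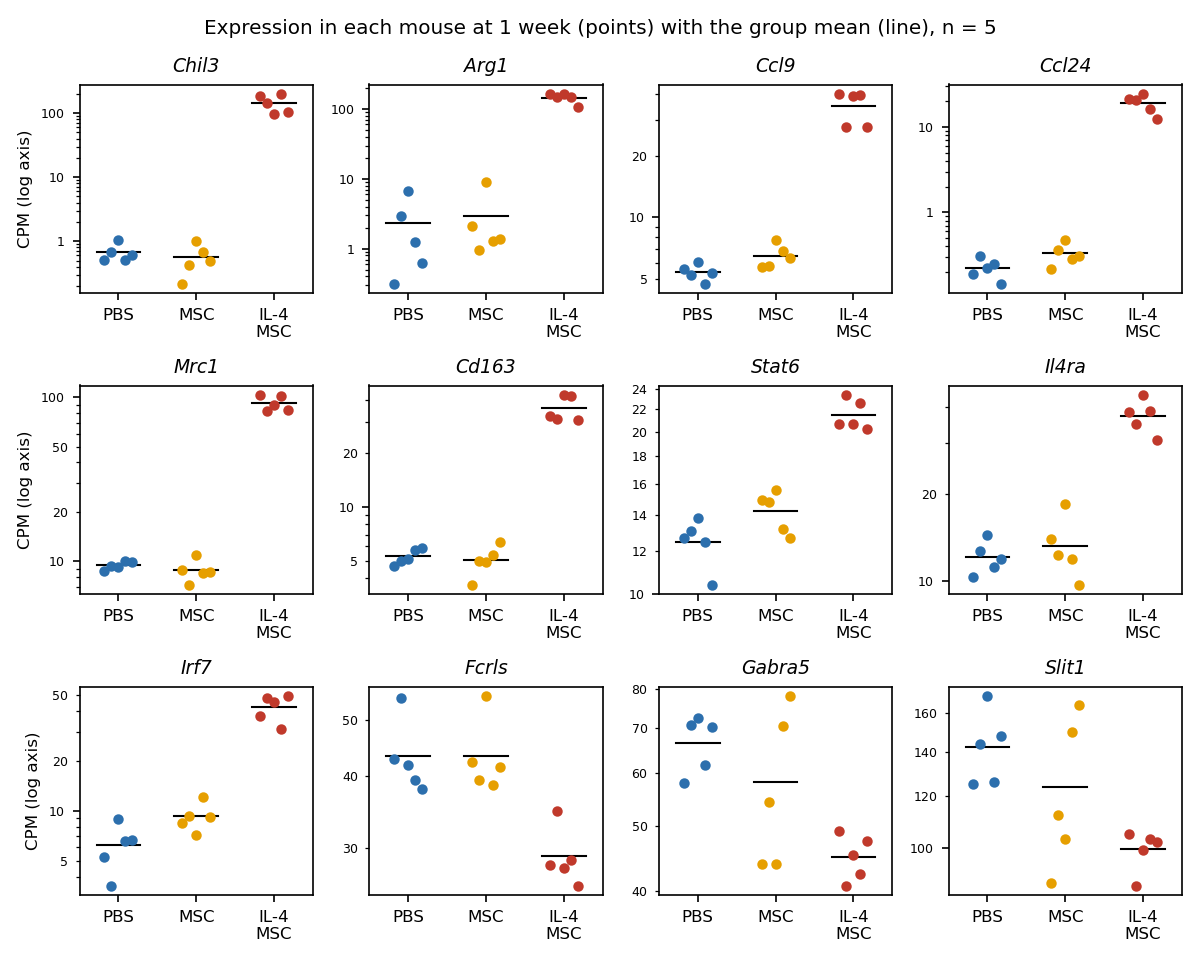
Each panel shows 1 gene, with CPM on a log axis and a point for each mouse at 1 week by treatment (PBS, MSC and IL-4 MSC, n = 5 each), and the line marks the group mean. In the first 9 panels all 5 IL-4 MSC mice lie above all PBS and MSC mice, as for Chil3 (lowest 95.2 CPM). In the last 3 panels they lie below the PBS mice, and for Gabra5 and Slit1 the MSC mice spread over both ranges.

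STAT6 binds paired half-sites of the form TTCNNNNGAA, and the start regions of the genes that rose most were searched for it. The window ran from 250 bases before to 50 bases after each start site in RefSeq (GRCm38.p6), and the motif reads alike on both strands. Of the 15 genes with the highest log2 fold changes among those past the test with a mean of at least 1 CPM and non-overlapping groups, 11 had a window and 3 held the motif. They are printed 5′ to 3′ with the motif in capitals, because Retnla, Retnlg and Pdcd1lg2 were among these 15. Retnla is at chr16:48842359-48842658 and Retnlg at chr16:48872358-48872657, both on the plus strand, and Pdcd1lg2 at chr19:29410669-29410968 on the plus strand.
Retnla: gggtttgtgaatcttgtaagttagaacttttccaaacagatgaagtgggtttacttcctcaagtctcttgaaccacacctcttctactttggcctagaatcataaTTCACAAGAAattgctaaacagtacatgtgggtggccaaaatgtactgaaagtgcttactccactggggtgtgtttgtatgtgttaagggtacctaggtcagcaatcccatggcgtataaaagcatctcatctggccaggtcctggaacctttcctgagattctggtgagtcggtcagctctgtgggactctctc
Retnlg: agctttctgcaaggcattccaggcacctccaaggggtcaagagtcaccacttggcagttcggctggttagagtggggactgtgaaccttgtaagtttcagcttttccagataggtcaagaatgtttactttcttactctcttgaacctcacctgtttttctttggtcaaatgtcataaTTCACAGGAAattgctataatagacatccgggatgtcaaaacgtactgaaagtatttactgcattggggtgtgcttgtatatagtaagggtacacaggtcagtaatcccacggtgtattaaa
Pdcd1lg2: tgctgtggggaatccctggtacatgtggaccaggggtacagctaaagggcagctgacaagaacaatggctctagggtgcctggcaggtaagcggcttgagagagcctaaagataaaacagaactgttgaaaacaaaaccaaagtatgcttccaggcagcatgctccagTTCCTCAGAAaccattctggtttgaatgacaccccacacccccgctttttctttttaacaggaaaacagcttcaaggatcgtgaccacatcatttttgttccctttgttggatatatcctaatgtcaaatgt

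The first base of the motif was at -145 from the start site in Retnla, -72 in Retnlg and -82 in Pdcd1lg2. Of 16717 windows of tested genes 5.7% held the motif, and of 1855 windows of higher genes 6.79%. Among higher genes whose log2 fold change was 2 or more the share was 13.4% (19 of 142 windows), and among lower genes 4.57% of 1137 windows. The spacing of 3 bases, TTCNNNGAA, was held by 7.11% of all windows, 7.76% of those of higher genes and 9.15% of the strongest. These shares describe letters in short windows, and windows of a gene with several start sites are not independent. The printed windows of Retnla and Retnlg are alike around the motif, so their matches are not independent of each other either.

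Arginine and polyamine metabolism changed at a few steps only. Of 21 genes 7 were higher and 2 lower, with a median of 0.06. Besides Arg1, the arginine carrier Slc7a2 rose from 56 ± 3.93 to 105 ± 10.4 CPM (log2 fold change 0.91, SE 0.07, adjusted p = 1.56e-11), and Sat1, which acetylates polyamines for export, rose by 0.68 (adjusted p = 9.66e-10). Nos2, the inducible nitric oxide synthase that competes with arginase for arginine, rose as well, from 0.75 ± 0.261 to 2.92 ± 0.677 CPM (1.95, SE 0.25, adjusted p = 3.94e-07). Odc1 (0.26) and Aldh18a1 (0.21) were higher, and spermine synthase Sms (-0.24) and the antizyme inhibitor Azin1 (-0.14) were lower. Without IL-4 MSC mouse 2 or 3, or PBS mouse 3 or 5, 1 of these falls remained past the test.

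Chemokines of type 2 responses were among the top genes. Ccl24, an eotaxin that attracts eosinophils through CCR3, had 21.3, 20.9, 24.5, 16.2 and 12.6 CPM in IL-4 MSC and 0.19, 0.312, 0.225, 0.251 and 0.147 CPM in PBS mice (chromosome 5, 135569937 to 135573049). No values overlapped, and it had the smallest adjusted p against PBS of all genes named here (2.04e-16, log2 fold change 6.37, SE 0.28). Ccl8, a ligand of several monocyte and type 2 lymphocyte receptors, had 33.2 ± 5.52 CPM against 0.161 ± 0.117 CPM, where 1 PBS mouse had no count (7.63, SE 0.41, adjusted p = 1.21e-14). Ccl11, a further eotaxin, rose by 3.81, its receptor Ccr3 by 4.42 and the eosinophil ribonuclease gene Ear2, whose counts were partly shared with relatives, by 4.40. Il1rl1, the receptor of IL-33, rose by 1.39 and Siglecf by 1.20. Of the 14 tested genes of this list 8 were higher and 0 lower (median 0.85), whereas Il33 (0.04), Ccl17 (-0.44), Ccl22 (0.28) and Epx (0.19) did not pass the test.

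Monocyte chemokines and receptors rose in 11 of 15 genes, with a median of 1.14 and 0 lower. Ccl9 had 40.2, 27.7, 39.1, 39.8 and 27.7 CPM against 5.61, 5.19, 6.07, 4.74 and 5.36 CPM (log2 fold change 2.69, SE 0.13, adjusted p = 6.17e-16). Ccl6 rose by 3.11 and Ccl7 by 4.74, the latter to 9.6 ± 2.42 CPM from 0.359 ± 0.257 CPM. Ccl2 (2.31), which draws monocytes through CCR2, its receptor Ccr2 (2.23) and Ccl5 (2.91) were also higher. The microglial receptor Cx3cr1 (-0.17), its ligand Cx3cl1 (-0.03), and Ccl3 (-0.53) and Ccl4 (0.12) did not pass the test.

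Macrophage and monocyte genes were higher in 15 of 20 cases with 0 lower, a median of 1.10 and a summed level of 411.4 to 560.8 CPM against 190.8 to 274.3 CPM in PBS mice. Ms4a7, a gene of macrophages that is low in resting microglia, had 9.17, 8.14, 5.38, 9.23 and 5.72 CPM against 0.697, 1.11, 1.03, 0.754 and 0.674 CPM (3.13, SE 0.26, adjusted p = 1e-10). Ly6c2 (3.85), Plac8 (3.04) and Ccr2 mark recently recruited monocytes, and Lyz2 (1.67) and Adgre1 (1.59, the F4/80 antigen) are broader macrophage genes. Itgam (0.00) and Cd14 (0.10) did not pass the test.

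Genes of homeostatic microglia, in contrast, were near the level of PBS mice. Of 18 genes 3 were higher and 1 lower, with a median of -0.00408 and overlapping summed levels of 1075 to 1215 CPM and 1054 to 1196 CPM. Over all genes tested 11.2% were higher and 6.16% lower. P2ry12 (-0.13) and Tmem119 (0.01) did not pass the test. Fcrls, an Fc receptor-like gene of resident microglia, fell from 42.7, 54.5, 41.8, 39.4 and 38 CPM in PBS mice to 28.1, 34.8, 27.8, 28.7 and 25.9 CPM in IL-4 MSC mice (-0.57, SE 0.13, adjusted p = 0.0023). The groups did not overlap for Fcrls. Csf1r (0.37), the microglial transcription factor Sall1 (0.23) and Selplg (0.23) were higher, and without IL-4 MSC mouse 2 or PBS mouse 3 or 5 a second gene of the list was lower.

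Disease-associated microglia genes were higher in 16 of 22 cases and lower in 1 (median 0.52), although their summed levels overlapped (2870 to 3606 CPM against 2378 to 3268 CPM in PBS mice). Clec7a, the beta-glucan receptor dectin-1, rose from 3.75 ± 0.838 to 30.9 ± 8.35 CPM (3.04, SE 0.32, adjusted p = 1.44e-08), Lgals3 by 2.72, Itgax by 1.42 and Trem2 by 0.60. Apoe (0.05), Ctsd (0.04) and Spp1 (-0.54) did not pass the test, and Lpl, the lipoprotein lipase, was lower (-0.38). Of 22 lysosome genes 19 were higher and 0 lower, with a median of 0.44. The cathepsin gene Ctsl had 204 ± 25.9 CPM against 101 ± 9.99 CPM (1.01, SE 0.09, adjusted p = 2.75e-10), and Ctsb, one of the largest rises in CPM, went from 518 ± 43.5 to 742 ± 43.8 CPM (0.52, SE 0.05, adjusted p = 8.12e-09). The asparagine endopeptidase Lgmn rose by 0.78, and Atp6v0d2, a proton pump subunit of fused macrophages and osteoclasts, by 4.17.

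Interferon-stimulated genes were the only list of the 53 examined in which every tested member passed the test as higher, 20 of 20, with a median of 1.72 and values from 0.66 to 2.78. Irf7, a transcription factor that amplifies type I interferon, had 37.2, 47.7, 45.4, 31 and 49.3 CPM in IL-4 MSC and 5.26, 3.53, 8.96, 6.53 and 6.62 CPM in PBS mice (chromosome 7, 141262706 to 141266481). The groups were far apart (2.78, SE 0.21, adjusted p = 2.36e-11). Bst2, also called tetherin, rose from 6.81 ± 1.07 to 26.9 ± 5.03 CPM (1.99), and Stat2, a transcription factor downstream of interferon, from 30.4 ± 2.53 to 49.9 ± 3.33 CPM (0.72, adjusted p = 9.78e-11). Zbp1 (2.33), a sensor of nucleic acids, Oas2 (2.20), Ifit1 (1.79), Mx1 (1.66), Isg15 (1.34) and Rsad2 (1.32) lay between. In MSC mice, whose cells had not been transfected, the same 20 genes had a median of 0.20 against the same PBS mice, and 0 passed the test there. Over all genes tested that comparison had a median of 0.00301, and only 0.123% were higher.

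Antigen presentation rose with them. B2m, the light chain of class I molecules, had 262, 337, 266, 251 and 255 CPM against 93.9, 77.3, 85.4, 105 and 81.1 CPM (1.63, SE 0.14, adjusted p = 1.43e-10), and the class I gene H2-D1 had 289.5 ± 33 CPM against 70.9 ± 8.19 CPM (2.03, adjusted p = 3.65e-11). Of 10 class II genes 8 were higher and 0 lower (median 0.99). Cd74, the invariant chain of class II molecules, rose from 8.68 ± 0.935 to 59.8 ± 8.97 CPM (2.79, SE 0.39, adjusted p = 2.91e-06), H2-Ab1 by 2.58, H2-Eb1 by 2.36 and their activator Ciita by 0.84. Among dendritic cell genes 2 of 11 were higher (median 0.05), where 11.2% of all genes tested were. These 2 were the lectin gene Cd209a (2.62) and Batf3 (1.42). Xcr1 (0.05), Clec9a (0.35) and Flt3 (0.05), which mark cross-presenting dendritic cells and their precursors, did not pass the test.

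Lymphocyte genes were higher at low levels. Of 11 genes of NK and cytotoxic cells 7 were higher and 0 lower, with a median of 2.21 that was the highest of all lists, although it was 0.77 as the log2 ratio of mean CPM with 0.5 added. When only the 10 libraries were fitted, 7 of the 11 genes passed the filter on low counts, and 5 of these were higher. Gzma, the granzyme A gene, had 1.8, 4.49, 3, 2.91 and 1.07 CPM against 0.0317, 0.024, 0, 0.0314 and 0.0586 CPM, which in PBS mice is at most 2 counts (6.33, SE 0.54, adjusted p = 2.69e-10). Klrb1c (3.06), perforin Prf1 (2.31), Gzmb (3.78) and Nkg7 (3.00) also rose, whereas Gzmk (-0.26) and Eomes (0.87) did not pass the test. The summed level of the list was 4.96 to 12.2 CPM against 1.39 to 2.38 CPM.

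Of 17 T cell genes 6 were higher and 0 lower (median 0.79). They included Cd2 (3.35), the cytokine receptor Il2rb (2.69), Cd4 (1.86), Cd28 (1.14) and Tcf7 (0.51), and with the striatal score as a covariate 10 passed. When only the 10 libraries were fitted, 11 of the 17 genes passed the filter on low counts, and 5 of these were higher. The chains of the T cell receptor complex Cd3d (0.07), Cd3e (1.06) and Cd3g (1.65) did not pass the test in the main fit. Of 6 tested B cell genes 1 was higher, Cd22 (1.07), which microglia are also known to express, with a list median of 0.53. Without PBS mouse 5, 2 B cell genes were higher. Neutrophil genes were mixed, with 5 of 12 higher and 0 lower (median 0.35): Retnlg rose by 5.10, Padi4 by 2.05 and Mmp8 by 2.02, whereas S100a8 (-0.68), S100a9 (-0.50) and Ngp (0.16), which fill neutrophil granules and cytosol, did not pass the test. The estimated counts of Retnlg were whole in only 5 of 10 libraries, because reads shared with similar genes are divided. Without IL-4 MSC mouse 2 or PBS mouse 4, 3 neutrophil genes were higher.

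Further gene groups of innate immunity moved in the same direction. Of 21 Fc receptors and C-type lectins 15 were higher and 0 lower (median 1.11), led by Clec7a, Clec4a3 (2.65) and the inhibitory receptor Fcgr2b (2.60), and Fcgrt, which recycles antibodies, rose from 14.4 ± 0.695 to 29.5 ± 3.44 CPM (1.03, SE 0.07, adjusted p = 9.71e-12). Complement genes were higher in 13 of 17 cases with 0 lower (median 0.87), among them C3 (2.54), its receptor C3ar1 (1.81), factor B Cfb (1.72), C1ra (1.46) and the C1q chains (0.75 to 0.79). Leukocyte adhesion genes were higher in 12 of 18 cases with 0 lower (median 0.93), among them Itgal (1.48), Itgb3 (1.04), Icam2 (0.98) and Itgb1 (0.47). Inflammatory cytokines and mediators were higher in 7 of 20 cases with 0 lower (median 0.43), with overlapping summed levels of 73.33 to 99.56 CPM and, in PBS mice, 55.2 to 95.15 CPM. In that list Cxcl9 (1.60), Cxcl10 (1.40), Osm (1.29) and Tlr4 (1.17) rose next to Nos2, whereas Il1b (-0.46), Il1a (0.32), Tlr2 (0.03) and Ptgs2 (0.37) did not pass the test.

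**Figure D3:**
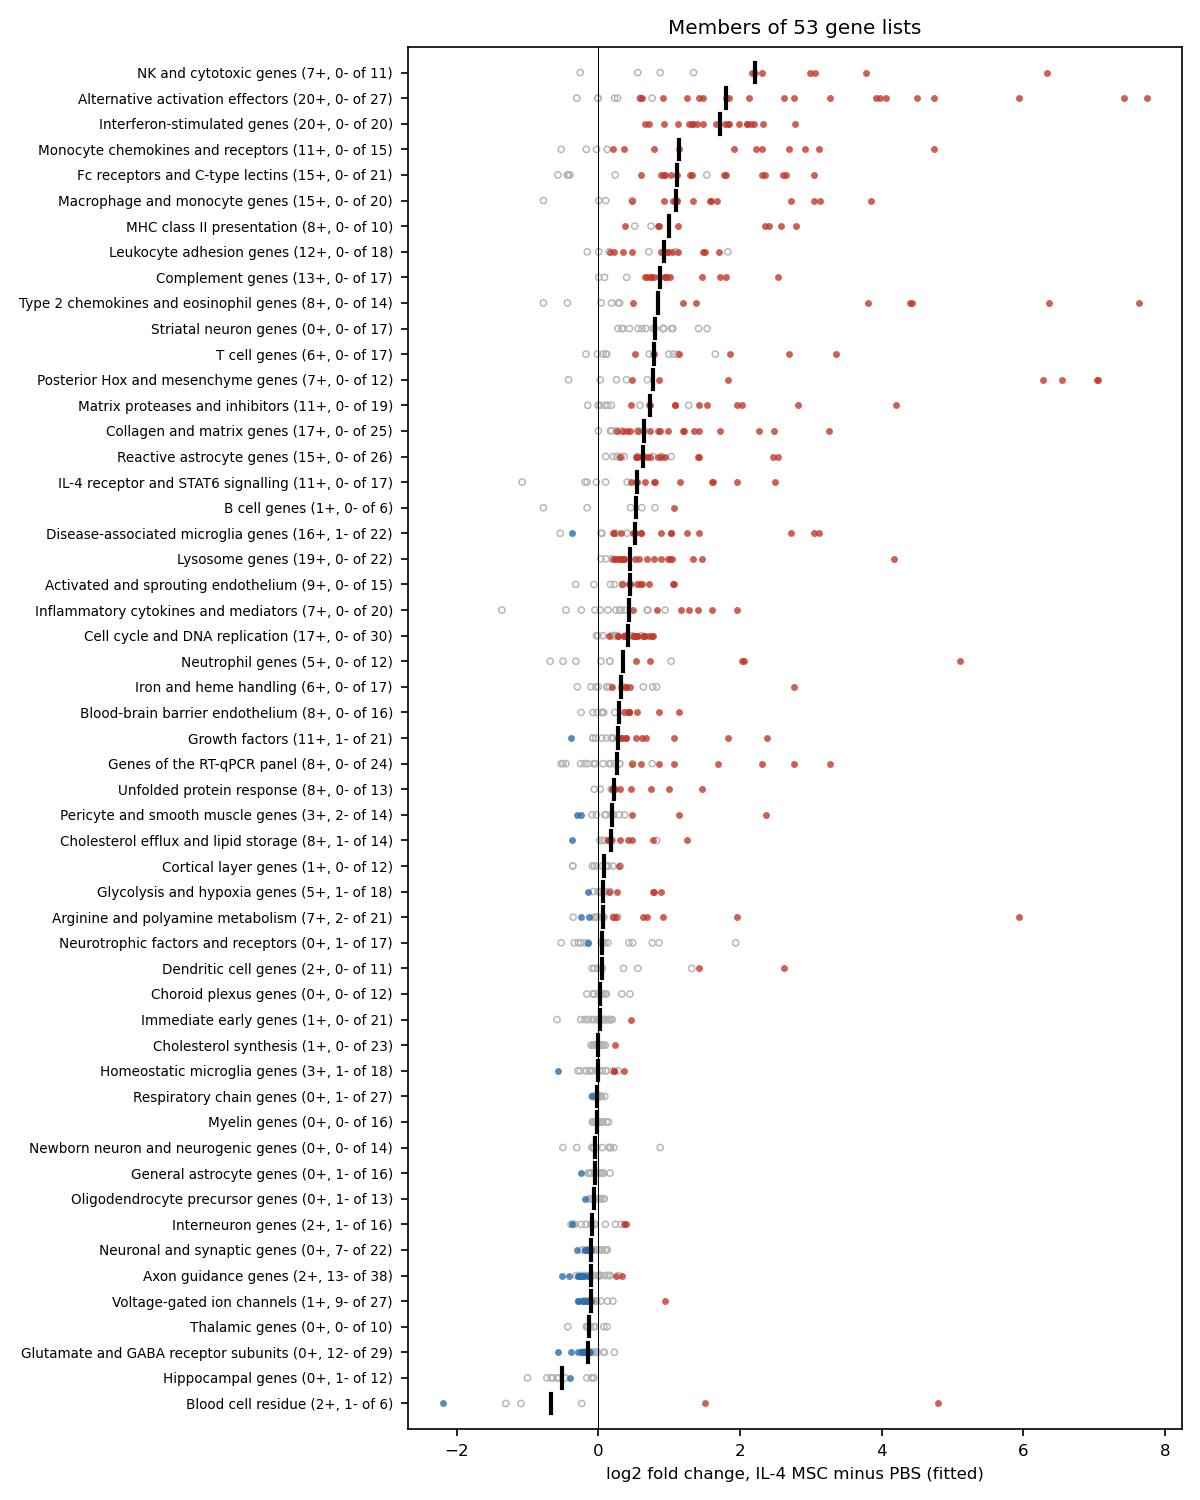
Every tested member of 53 gene lists is a point at its fitted log2 fold change (IL-4 MSC minus PBS), filled red where higher, filled blue where lower and open grey where the adjusted p was 0.05 or more, with the list median as a black bar and the counts of higher (+) and lower (-) genes beside each name. Lists of immune cells fill the upper rows with medians of up to 2.21, while lists of myelin, cholesterol synthesis and the respiratory chain sit near 0, striatal genes lie at a median of 0.80 and hippocampal genes at -0.51. Of all genes tested 11.2% were higher and 6.16% lower.

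Red cell genes gave an uneven picture. Hba-a2, an alpha-globin gene, had 162, 255, 214, 226 and 66.8 CPM in IL-4 MSC and 8.18, 1.37, 8.64, 11.6 and 4.13 CPM in PBS mice, without overlap (4.80, SE 0.66, adjusted p = 1.88e-06). The beta-globin gene Hbb-bs, which red cells make in step with alpha-globin, had 4.7, 1.59, 2.72, 2.1 and 3.86 CPM against 7.04, 1.13, 9.12, 14.9 and 4.98 CPM (-1.31, adjusted p = 0.243), and Alas2 of the heme pathway had -0.24. Hba-a1, whose reads cannot be cleanly told from those of Hba-a2, was lower (-2.20, adjusted p = 0.0473), and not past the test without any one of 9 of the 10 mice. The sum of both alpha-globin genes was 163, 256, 214, 226 and 67.4 CPM against 10.1, 1.92, 10.9, 14 and 5.39 CPM, which did not overlap either. The table gives 1 estimated count for a gene, so which part of the Hba-a2 transcript the reads came from, and whether RNA with like sequence from another source added to them, was not tested. In MSC mice Hba-a2 had 9.72 ± 5.31 CPM. The platelet gene Pf4, the other rise in this list of 6 genes, went from 0.947 ± 0.375 to 2.73 ± 0.776 CPM (1.50, adjusted p = 2.14e-04). Iron and heme handling genes were higher in 6 of 17 cases with 0 lower (median 0.31), and apart from Cd163 these were the small rises of Blvrb (0.45), Ftl1 (0.40), Steap3 (0.39), Trf (0.31) and Blvra (0.19), while Hmox1 (-0.30) did not pass the test. The summed levels of this list overlapped (3449 to 3830 CPM against 3011 to 3553 CPM in PBS mice).

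A few of the largest changes lay outside the immune lists. Hmga1b, a near copy of the chromatin gene Hmga1, had 2.57 ± 1.27 CPM in IL-4 MSC mice and no count in any PBS mouse, so it was at least 26.8-fold higher against a floor of 3 counts per library. Eno1b, a near copy of the enolase gene Eno1, had 22 ± 9.34 CPM against 0.145 ± 0.152 CPM (7.25, adjusted p = 9.32e-08). Both are uncertain, since reads shared with the parent gene are divided between them, and Hmga1 (0.07) and Eno1 (0.01) themselves did not differ past the test. MSC mice also had counts of these copies, 0.611 ± 0.457 CPM of Hmga1b and 6 ± 3.47 CPM of Eno1b.

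The homeobox gene Msx3 had 5.61, 6, 5.77, 5.06 and 3.75 CPM in IL-4 MSC mice and at most 0.0964 CPM in PBS mice (6.87, SE 0.44, adjusted p = 4.4e-13), with 0.0233 ± 0.0231 CPM in MSC mice. F7, coagulation factor VII, rose from 0.317 ± 0.188 to 7.74 ± 2.03 CPM (4.54, adjusted p = 1.34e-10). In all, 12 tested genes had no count in any PBS mouse, so they could only come out as higher, and 10 of them passed the test. Rpl9-ps6, which did not pass, had no count in IL-4 MSC or MSC mice either. Gm10184, which passed, had no count in IL-4 MSC mouse 4 and 28, 36, 17, 44 and 0 counts in MSC mice. Besides Hmga1b the genes past the test were Rnase2a (at least 13.2-fold higher), Prl2c3 (8.24), Gm10184 (5.74), Hoxc10 (5.02), Hoxc6 (5.0), Klra8 (3.74), Hoxa10 (3.53), Gm26602 (3.52) and Hoxa9 (2.91), each value a lower bound.

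The Hox genes among them pattern the posterior trunk and limbs and are largely silent in forebrain, whereas many mesenchymal cells express them. Of 12 tested posterior Hox and mesenchyme genes 7 were higher and 0 lower (median 0.77). With only the 10 libraries in the fit 5 of them passed the filter on low counts, and 2 of these were higher. Hoxc6 had 5, 23, 15, 26 and 14 counts in IL-4 MSC mice, 0 in every PBS mouse, and 23, 17, 3, 29 and 6 in MSC mice. Against MSC mice its log2 fold change was 0.06 (adjusted p = 0.97), so both groups that received cells carried it at a like range of counts. Prrx1, a mesenchymal transcription factor, rose from 12.7 ± 1.2 to 17.6 ± 2.08 CPM (0.47).

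Of 25 collagen and matrix genes 17 passed the test as higher in IL-4 MSC mice and 0 as lower (median 0.65), and in MSC mice 8 were higher than in the same PBS mice (median 0.39). With only the MSC and PBS mice in the fit 0 genes of any kind were higher in MSC mice, so these 8 calls were lost. Lox, the lysyl oxidase that cross-links collagen, had 34.8, 30.5, 28, 25.1 and 15.3 CPM in IL-4 MSC and 2.35, 1.83, 6.33, 2.1 and 1.49 CPM in PBS mice, which is 3.26 on the log2 scale (SE 0.28, adjusted p = 3.89e-10). It was 7.38 ± 2.2 CPM in MSC mice and 1.86 higher in IL-4 MSC than in MSC mice on the log2 scale (adjusted p = 4.37e-06). Postn rose by 2.49, Col3a1 by 2.27, Col1a1 by 1.21 and fibronectin Fn1 from 134 ± 26.1 to 359 ± 67.1 CPM (1.42, SE 0.17, adjusted p = 1.47e-07). Between IL-4 MSC and MSC mice 5 of the 25 matrix genes were higher and 0 lower.

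Proteases that remodel matrix were higher in 11 of 19 cases with 0 lower (median 0.72). The collagenase Mmp13 had 4.66 ± 2.17 CPM against 0.246 ± 0.216 CPM (4.20, SE 0.51, adjusted p = 2.01e-07), the macrophage elastase Mmp12 rose by 2.82, Adam8 by 1.96, urokinase Plau by 1.08 and the inhibitor Timp1 by 1.42. Growth factors and their receptors were higher in 11 of 21 cases and lower in 1 (median 0.28). Tgfbi, a matrix protein induced by TGF-beta, rose from 13 ± 3.57 to 67.9 ± 9.99 CPM (2.38, SE 0.25, adjusted p = 2.17e-08), Tgfb1 by 1.06, Vegfa by 0.67 and Igf1 by 0.31, whereas Tgfb2 was lower (-0.39), a call that held only when no mouse or PBS mouse 5 was left out.

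Vessel genes rose modestly. Of 16 genes of blood-brain barrier endothelium 8 were higher and 0 lower (median 0.30), and of 15 genes of activated and sprouting endothelium 9 were higher and 0 lower (median 0.44). Pecam1, the adhesion molecule CD31, had 45.2, 52.4, 49.3, 44.5 and 36.5 CPM against 19.5, 21.1, 21.8, 20.8 and 20 CPM (1.14, SE 0.09, adjusted p = 3.83e-11). The junction gene Cldn5 (0.85), the VEGF receptor Flt1 (0.41), Vwf (1.06), Cd93 (1.06) and Emcn (0.72) were higher, but the carriers Slc2a1 (0.06), Mfsd2a (-0.24), Slco1a4 (-0.02) and Abcb1a (0.06) did not pass the test. Pericyte and smooth muscle genes were higher in 3 of 14 cases and lower in 2 (median 0.20). Anpep, the aminopeptidase CD13 of pericytes and myeloid cells, had 30.7 ± 5.17 CPM against 5.94 ± 0.618 CPM (2.37, SE 0.13, adjusted p = 3e-14), while Rgs5 fell by 0.24 (adjusted p = 0.00532) and Vtn by 0.30, and Pdgfrb (0.18) did not pass the test.

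Astrocyte genes split into reactive and general ones. Of 26 reactive astrocyte genes 15 were higher and 0 lower (median 0.63), with Emp1 rising from 5.87 ± 1.97 to 32.5 ± 3.64 CPM (2.46, SE 0.18, adjusted p = 1.39e-11), Vim by 0.84, Serping1 by 0.94, Serpina3n by 0.73 and S100a10 by 0.55, although several of these are also expressed by vessel or immune cells. Gfap, the filament gene that defines reactive astrocytes, had 0.26 and did not pass the test. The summed level of the 26 genes overlapped between the groups (1873 to 2414 CPM against 1250 to 1964 CPM in PBS mice). Of 16 general astrocyte genes 0 were higher and 1 lower (median -0.04). The lower gene was Slc1a2, the main glutamate transporter, with 4170, 3440, 4090, 3620 and 3700 CPM in PBS and 3220, 3330, 3160, 3130 and 3210 CPM in IL-4 MSC mice (-0.25, SE 0.05, adjusted p = 3.92e-04). The groups did not overlap for Slc1a2, while Aldh1l1 (0.06), Aqp4 (0.04) and Slc1a3 (0.02) did not pass the test. Without PBS mouse 3 or 5, 2 general astrocyte genes were lower.

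Dividing-cell genes rose by small amounts. Of 30 genes of the cell cycle and DNA replication 17 were higher and 0 lower (median 0.42), with Mcm2 at 8.96 ± 0.926 CPM against 6.14 ± 0.867 CPM (0.54, adjusted p = 2.54e-04), Cdc20 at 0.77, Mki67 at 0.66 and Top2a at 0.63. The count of higher genes rested on single mice, falling to 6 without IL-4 MSC mouse 1 or PBS mouse 1, to 7 without PBS mouse 4 or 5, and to 8 without IL-4 MSC mouse 2 or with the striatal score as a covariate. Genes of the unfolded protein response were higher in 8 of 13 cases with 0 lower (median 0.22), among them Trib3 (1.46), the disulfide isomerase Pdia4 (0.74, adjusted p = 7.07e-08) and the chaperone Calr (0.24).

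Among metabolic lists, glycolysis and hypoxia genes were higher in 5 of 18 cases and lower in 1 (median 0.06). Hk2 (0.77), Hk3 (0.78), the lactate exporter Slc16a3 (0.88) and Ldha (0.27) rose, and Hk1, the main neuronal hexokinase, was lower (-0.15), though not without any one of 5 mice. Respiratory chain genes had 0 of 27 higher and 1 lower (median -0.01), which was Ndufs1 (-0.10). That call was lost with only the 10 libraries in the fit and under the scaling with the fewest lower genes, and 4 were lower without PBS mouse 3. Cholesterol synthesis genes had 1 of 23 higher, Ebp (0.23), and 0 lower (median -0.0026). Cholesterol efflux and lipid storage genes had 8 of 14 higher and 1 lower (median 0.18), with the lipid droplet gene Plin2 (0.77), the liver X receptor Nr1h3 (0.48) and the exporter Abca1 (0.42) among them. The higher count of that list was 3 without IL-4 MSC mouse 2, 4 without IL-4 MSC mouse 1 or PBS mouse 5, and 5 without IL-4 MSC mouse 3 or PBS mouse 1, 3 or 4. Its summed levels overlapped (1580 to 2045 CPM against 1439 to 1937 CPM in PBS mice).

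Neuronal genes were lower by small margins. Of 22 neuronal and synaptic genes 0 were higher and 7 lower (median -0.10), and the summed levels overlapped. Map2, a microtubule protein of dendrites, had 1086 ± 49.7 CPM against 1234 ± 65.8 CPM (-0.18, SE 0.04, adjusted p = 0.0012), Syn2 of synaptic vesicles had -0.30 and the kinase Camk2b had -0.18. Snap25 (-0.00), Rbfox3 (0.02), Gad1 (0.05) and Slc17a7 (-0.23) did not pass the test. The lower count was 3 without IL-4 MSC mouse 2 and 4 without IL-4 MSC mouse 3 or 4 or PBS mouse 4, and 3 with the reference library that gave the fewest lower genes or with the striatal covariate.

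Receptor subunits for glutamate and GABA were lower in 12 of 29 cases with 0 higher (median -0.15). Gabra5, a GABA receptor subunit most abundant in hippocampus, fell from 57.9, 70.6, 72.4, 61.7 and 70.1 CPM to 49.1, 40.7, 45.2, 42.3 and 47.4 CPM without overlap (-0.57, SE 0.18, adjusted p = 0.0267), although not past the test without IL-4 MSC mouse 2 or 4 or PBS mouse 3 or 5. Gria1 (-0.38), Gabra2 (-0.28) and Grm7 (-0.17) were also lower, whereas Gria4 (-0.06) and Grin2a (-0.24) did not pass the test. The lower count fell to 3 without IL-4 MSC mouse 2 or PBS mouse 3, to 6 or 7 without IL-4 MSC mouse 3 or 4 or PBS mouse 5, and to 6 under the scaling with the fewest lower genes.

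Voltage-gated ion channels were lower in 9 of 27 cases and higher in 1 (median -0.11), with Kcnd3 (-0.29) and Cacna1b (-0.15) among the lower ones and Scn4b (0.94), a channel subunit abundant in striatum, as the higher one. The lower count was 4 or 5 without IL-4 MSC mouse 2 or 3 or PBS mouse 1 or 3, and Scn4b did not pass the test with the striatal covariate. Axon guidance genes were lower in 13 of 38 cases and higher in 2 (median -0.11). Slit1, a repellent of growing axons, had 105, 87.7, 99.2, 103 and 102 CPM in IL-4 MSC and 125, 144, 170.0, 126 and 148 CPM in PBS mice (-0.52, SE 0.16, adjusted p = 0.0214), a call that was lost without IL-4 MSC mouse 2 or PBS mouse 3. Slit3 (-0.41), Unc5c (-0.29), Robo1 (-0.26) and the ephrin gene Efnb3 (-0.23) were also lower. Plxnd1 (0.34), a semaphorin receptor of vessels, and Sema7a (0.25) were higher, and 1 of them remained without IL-4 MSC mouse 2 or 5 or PBS mouse 2. The lower count of the axon list was 6 without IL-4 MSC mouse 2 or PBS mouse 3, 7 without IL-4 MSC mouse 3 and 8 under the scaling with the fewest lower genes.

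Other neural lists held few calls, where 11.2% of all genes tested were higher and 6.16% lower. Immediate early genes had 1 of 21 higher, Ier2 (0.46), and 0 lower (median 0.02), and Fos (0.17), Arc (0.12) and Egr1 (0.08) did not pass the test. Interneuron genes had 2 of 16 higher, Pvalb (0.39) and Npy (0.36), and 1 lower, Crhbp (-0.37), with a median of -0.10. Myelin genes had 0 of 16 past the test (median -0.01), with Mbp at 2162 ± 110.0 CPM against 2191 ± 210.5 CPM. Oligodendrocyte precursor genes had 0 of 13 higher and 1 lower, Ptprz1 (-0.19), with a median of -0.07. Neurotrophic factors and receptors had 0 of 17 higher and 1 lower, the BDNF receptor Ntrk2 (-0.14, list median 0.06), and newborn neuron and neurogenic genes had 0 of 14 past the test (median -0.04), among them Dcx (-0.02). Ier2 lost its call without any one of 7 mice (IL-4 MSC 1, 2 and 4, PBS 2 to 5), Ptprz1 without IL-4 MSC mouse 3 or 4 or PBS mouse 2, Crhbp without IL-4 MSC mouse 1, 3 or 4 or PBS mouse 5, and without IL-4 MSC mouse 2, 3 or 5 or PBS mouse 2 or 3 neither Pvalb nor Npy passed. With the striatal score as a covariate none of Ier2, Pvalb, Npy and Crhbp passed, and 0 interneuron genes were higher or lower. The study's own RT-qPCR panel, which was chosen for these mice and is no independent evidence, had 8 of 24 higher and 0 lower (median 0.26), led by Mrc1, Cd163 and Ccl2.

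The 15 genes with the lowest log2 fold changes among those that passed the rule for named genes were small falls of varied kind. Fmo2, a flavin monooxygenase, had 0.849, 0.932, 1.01, 1.53 and 1.68 CPM in IL-4 MSC and 2.22, 2.38, 2.57, 4.02 and 4.66 CPM in PBS mice, the largest of these falls (-1.40, SE 0.27, adjusted p = 2.78e-04). Ghsr, the ghrelin receptor, fell by 1.16, the channel subunit Kcng2 by 0.87, and Npy2r, a receptor of neuropeptide Y, by 0.67. The extracellular proteins Myoc (15.9 ± 2.03 against 25.3 ± 3.27 CPM) and Fmod (9.97 ± 0.922 against 15.8 ± 1.17 CPM) fell by 0.67 each. Drd5, Myo5b, Slc44a5, Edn3, St18 and St6galnac5 fell by 0.51 to 0.61. Of these, Ghsr, Myoc and Fmod passed the test under every alternative along with Fmo2, Fcrls, Edn3 and St18, whereas Kcng2 did not without IL-4 MSC mouse 2 or 4, Npy2r without these or PBS mouse 2, Slc44a5 without IL-4 MSC mouse 2, Myo5b without IL-4 MSC mouse 2 or 3 or PBS mouse 2, 3 or 5 or with the striatal covariate, and Drd5 and St6galnac5 under 14 and 11 alternatives.

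The largest falls in CPM were of abundant genes. Besides Slc1a2 they included the peptide-processing enzyme Cpe (1537 ± 37.6 against 1778 ± 99.4 CPM, -0.21), Nptxr (-0.37), Map1b (-0.18) and Ncdn (-0.26). The levels of these 5 genes were 77.5% to 88.3% of those in PBS mice, the groups overlapped only for Map1b, and Nptxr did not pass the test without PBS mouse 3. The elongation factor Eef1a1 was among the largest rises in CPM, with 1917 ± 72 against 1726 ± 88.9 CPM, a log2 fold change of only 0.15 with overlapping groups (adjusted p = 0.00133).

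Whether the IL-4 MSC effect differed from that of naive MSCs was tested between IL4.1WK and MSC.1WK mice. Naive cells had not been transfected, so IL-4, the synthetic mRNA and the transfection agent cannot be told apart in this comparison. There 1312 genes were higher in IL-4 MSC mice, 7.66% of those tested, and 176 were lower, 1.03%. MSC mice differed from PBS mice in 21 higher genes, 0.123%, and 0 lower genes, 0.0%. DESeq2 called 1 lower gene and limma-voom 0. At an unadjusted p under 0.05 edgeR gave 347 lower genes of 17131 tested, which is no more than chance alone would give. With only these 10 MSC and PBS libraries in the fit 0 genes were higher, and without MSC mouse 1, 2 or 4 or PBS mouse 1, 2, 4 or 5 there were 11 to 13. The lower count against MSC mice was 82 to 113 without IL-4 MSC mouse 1, 2 or 3 or MSC mouse 4 or 5, and 273 with only the 10 libraries of that comparison. Both effects were measured from the same PBS mice, and they are given side by side. The 1918 genes higher in IL-4 MSC mice had a median log2 fold change of 0.54 in IL-4 MSC and 0.08 in MSC mice, and the 1056 lower genes had -0.16 and -0.06.

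Against MSC mice Chil3 was 7.98 higher (adjusted p = 6.95e-16), Retnla 7.43, Msx3 7.59, Ccl24 5.82, Arg1 5.58, Mrc1 3.37, Il4ra 1.49, Irf7 2.19 and Stat6 0.59. All 20 interferon-stimulated genes, 20 of 27 alternative activation effectors, 15 of 20 macrophage genes, 17 of 22 lysosome genes and 14 of 26 reactive astrocyte genes were higher than in MSC mice. Fewer falls passed the test in this comparison. Fmo2 (-1.45), Fcrls (-0.58), Myoc (-0.59) and Fmod (-0.60) were lower than in MSC mice, whereas Gabra5 (-0.37, adjusted p = 0.251), Slit1 (-0.32, adjusted p = 0.266) and Ghsr (-0.72, adjusted p = 0.191) did not pass the test. Of the neuronal, receptor subunit and ion channel lists 0 genes were lower than in MSC mice, and of the axon guidance list 2 were. Only 1.03% of all genes tested were lower there. The medians of these lists against MSC mice were, in that order, -0.07, -0.08, -0.08 and -0.07.

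**Figure D4:**
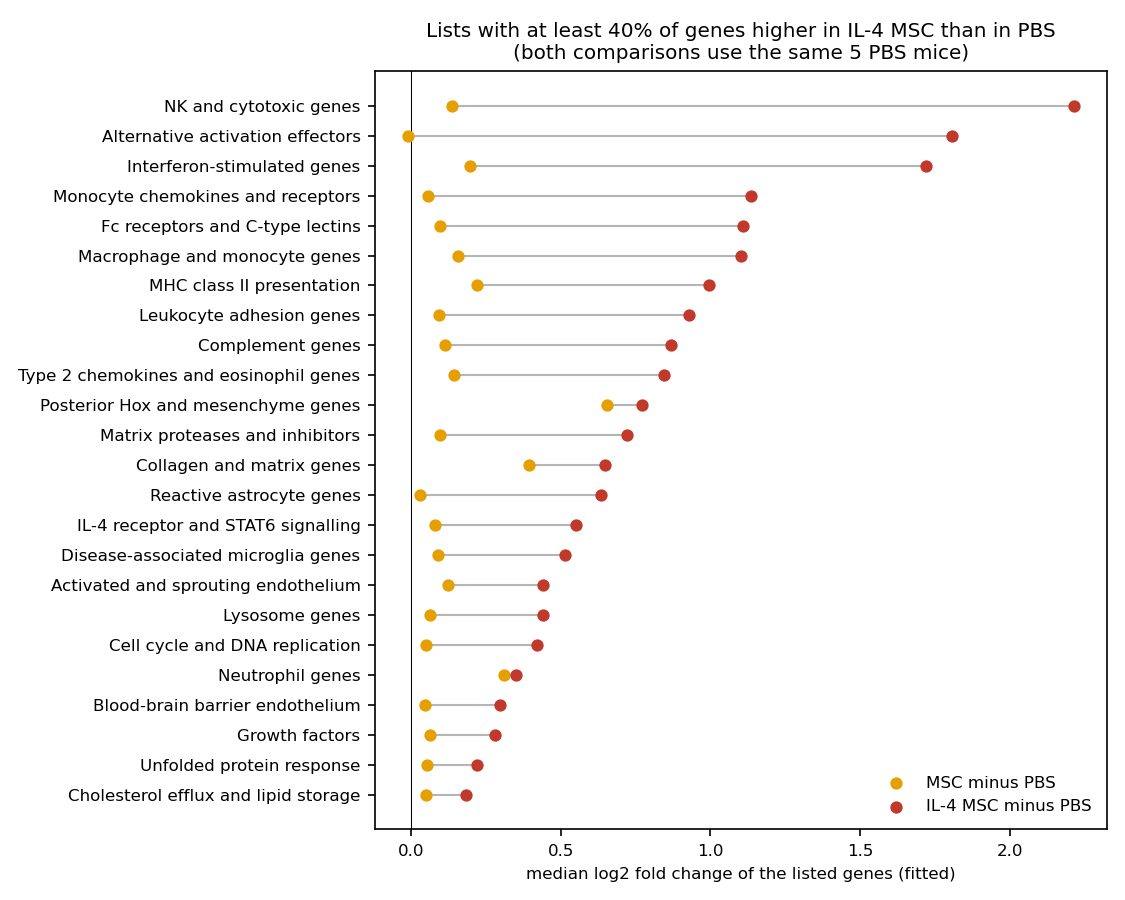
For the 24 lists in which at least 40% of the tested genes were higher in IL-4 MSC than in PBS mice, the median log2 fold change from PBS is shown for MSC mice (orange) and IL-4 MSC mice (red), joined by a line. Both values of a list share the 5 PBS mice. Alternative activation effectors run from -0.01 to 1.81, while collagen and matrix genes (0.39 and 0.65), posterior Hox genes (0.66 and 0.77) and neutrophil genes (0.31 and 0.35) lie close together.

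How far the effect differed from that at 16 days after injection was tested as the difference between IL4.1WK minus PBS.1WK and IL4.3WK minus PBS.3WK. The effect was higher at 2 days in 673 genes, 3.93% of those tested, and lower in 135, 0.788%. The latter count was unsteady, at 479 without IL4.3WK mouse 2, 211 without PBS.1WK mouse 2, and 46 to 83 without IL4.1WK mouse 1 or 2, IL4.3WK mouse 4 or 5, PBS.1WK mouse 5 or PBS.3WK mouse 1, 3 or 4. Mrc1 had a log2 fold change of 3.27 at 2 days and 0.07 at 16 days (adjusted p of the difference 1.34e-09), Ccl9 had 2.69 and -0.06 (8.55e-11), and Ccl24 had 6.37 and -0.14 (9.32e-10). Stat6 (0.78 and 0.24) and Il4ra (1.62 and 0.06) differed as well. Of the 22 lysosome genes 12 had a higher effect at 2 days, of the 20 interferon-stimulated genes 14, of the 25 matrix genes 13 and of the 16 blood-brain barrier genes 8.

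For other genes the weeks were not told apart. Chil3 had 7.74 and 2.04 (adjusted p of the difference 0.116), Arg1 5.94 and 0.84 (0.134) and Ccl8 7.63 and 2.81 (0.101), where the values at 16 days had standard errors of 0.878 to 1.37. Cd74 (2.79 and 1.58), H2-Ab1 (2.58 and 1.50) and Gzma (6.33 and 2.18) did not differ past the test either, and 0 of 10 class II genes and 0 of 11 NK genes did. Of the falls, Fmo2 differed between the weeks (-1.40 and 0.23, adjusted p = 0.0102), while Slit1 (-0.52 and -0.47), Gabra5 (-0.57 and -0.60), Ghsr (-1.16 and -1.43) and Npy2r (-0.67 and -0.78) had like values at both. Striatal genes had a median of 0.80 at 2 days and 2.05 at 16 days, when 14 of 17 passed the test. Hippocampal genes had medians of -0.51 and -1.06, with 1 of 12 lower at each time. The part of tissue composition in the falls seen at both times was not tested.

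**Figure D5:**
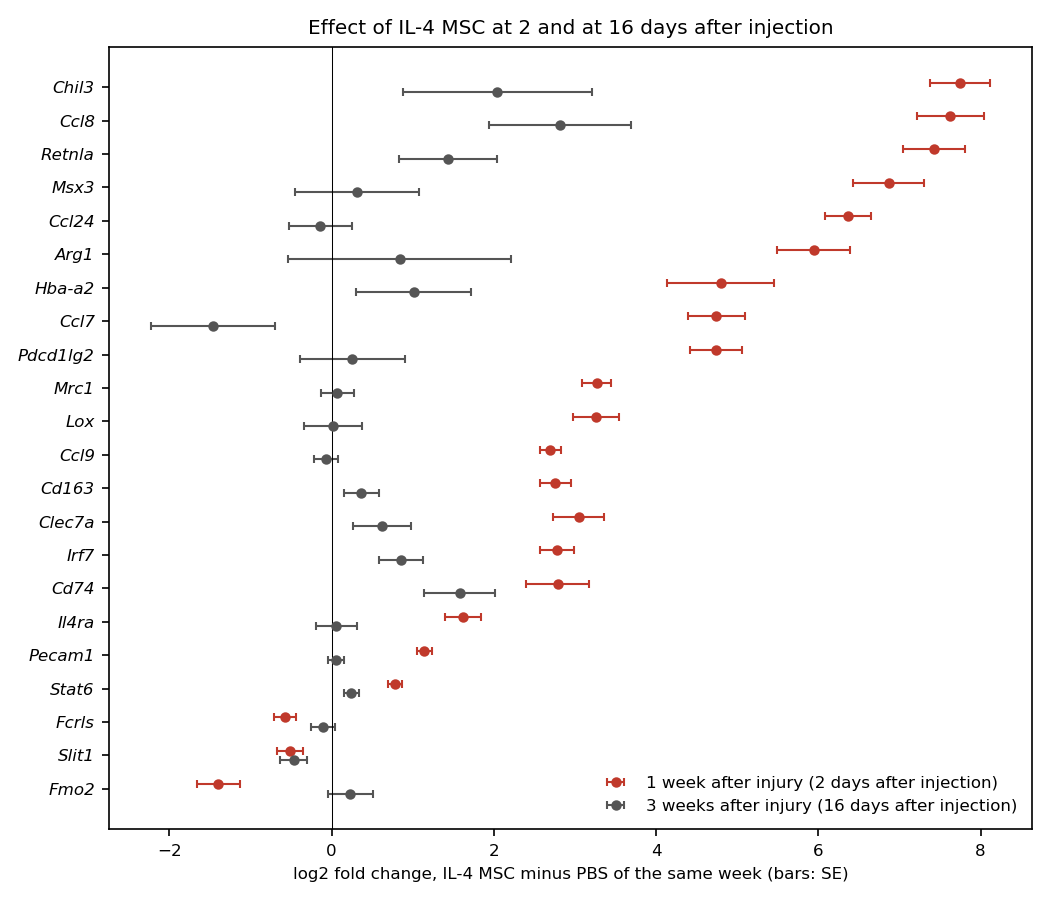
The points give the fitted log2 fold change of IL-4 MSC from PBS mice of the same week, with the SE as bars, at 2 days (red, 5 against 5 mice) and 16 days (grey, 5 against 4 mice) after injection for 22 genes. Most rises near the top shrink toward 0 by 16 days, as for Mrc1 (3.27 and 0.07), but Chil3, Ccl8 and Cd74 keep values of 1.58 to 2.81 with wider bars, and Slit1 has about the same fall at both times.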

How the data were processed

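RNA-seq reads of 50 bases were trimmed by the authors with cutadapt 2.4 and quantified with kallisto 0.46 on GENCODE vM23 transcripts (FastQC 0.11.8, sleuth 0.30 and R 3.6.1 were also named). The deposited table gives estimated counts for 21203 genes, of which 43.1% of values above 0 were not whole (tolerance 0.01) because shared reads are divided, and these were rounded. The authors also deposited TPM, which were summarised but given no test. Another 63 columns hold the authors' own comparisons (fold changes and p-values) and were not used.

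Groups came from the labels, and 1 PBS.3WK sample had no column. After edgeR's filter on low counts 17131 genes were scaled by TMM and tested two-sided with edgeR 4.0.16 (glmQLFit and glmQLFTest, R 4.3.3, limma 3.58.1) with a mean for each group of all 34 libraries. P-values were adjusted by Benjamini-Hochberg. The SE is the absolute log2 fold change divided by the square root of F, CPM use TMM factors, and fitted fold changes use edgeR's prior count. Positions are GRCm38 (GENCODE vM21). DESeq2 1.42.0, limma-voom, RLE scaling, no filter, only the groups compared, a replicate block, a striatal covariate, each mouse left out and, chosen after seeing the data, other TMM references were tried. In simulated data for IL4.1WK against PBS.1WK over 17131 genes with 200 changed, 95% were recovered at 1.5-fold and 95% at 2-fold, and 3.55% of calls were unchanged genes. The changed genes had a mean of at least 1 CPM, and as many were raised as lowered. The simulation therefore does not cover genes of lower level, smaller differences or the dependence of the lower calls on scaling. Depth of 29838423 to 40748040 counts limits genes at a few counts, and intervals on such counts were not computed.

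Named genes were the 15 highest and 15 lowest log2 fold changes among genes past the test with a mean of at least 1 CPM and non-overlapping groups, the 6 largest rises and falls in CPM, the 3 smallest adjusted p of each of 53 gene lists (or its most abundant member) and Il4, Il4ra and Stat6. Other members of lists are named as examples after their values were seen, and some genes are not reported here. The lists were chosen with earlier results of these data known, and 54 symbols are held by more than 1 gene. Numbering of mice did not pair the libraries (same-number correlations -0.117 to 0.0676). Python 3.11.15, numpy 2.4.6, pandas 2.3.3, scipy 1.17.1 and matplotlib 3.10.9 were used for summaries, the exact permutation test and plots.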

Additional observations from a re-analysis of the deposited data

Results flagged for a closer look

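In groups of 5 mice, 22 of 294 sets of values had 1 mouse apart from the others by more than Dixon's criterion, and chance alone flags about 1 in 20. The number given is the gap to the nearest mouse as a share of the whole range. IL-4 MSC mouse 2 was highest for H2-D1 (0.77), B2m (0.824), Socs1 (0.763), Flt1 (0.728) and Ier2 (0.717). IL-4 MSC mouse 5 was lowest for Arg1 (0.715, 106 CPM against 147 in the next), Ctsl (0.836), Plin2 (0.711) and Hk2 (0.74), mouse 1 was lowest for Pvalb (0.781), and mouse 4 was highest for Mmp8 (0.713). PBS mouse 3 was highest for Ccl7 (0.775), Lox (0.824, 6.33 CPM against 2.35) and Cacna1b (0.729), and lowest for Cpe (0.733) and Ttr (0.731). PBS mouse 2 was highest for Drd5 (0.801), Fcrls (0.713), Lgmn (0.803) and Pf4 (0.717). PBS mouse 4 was highest for Cd2 (0.744) and PBS mouse 5 lowest for Clec7a (0.749).

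The effect of IL-4 MSC against PBS differed between 2 and 16 days by an interaction term in edgeR for 11 of the genes with the largest changes or in the IL-4 pathway. On the log2 scale the effect at 2 days less that at 16 days was 5.99 for Retnla, 7.4 for Eno1b, 6.55 for Msx3, 6.5 for Ccl24, 6.2 for Ccl7, 4.49 for Pdcd1lg2, 4.38 for Mmp13, 3.79 for Hba-a2 (adjusted p = 0.0144), 1.56 for Il4ra, 0.54 for Stat6 and -1.63 for Fmo2.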

How the results depend on the processing

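Limits first: mice were the replicates, genes at a few counts are imprecise, counts of lower genes moved with scaling, and tissue composition was not matched between groups. Requiring a log2 fold change of at least 1 left 484 higher and 7 lower genes against PBS, 362 and 5 against MSC, and 224 and 9 for the difference between weeks. Under the TMM reference with the fewest lower genes 538 were lower than in PBS mice. Leaving out 1 mouse at a time gave 1550 to 1965 higher and 560 to 1116 lower genes against PBS, 1058 to 1330 and 82 to 223 against MSC, 11 to 26 and 0 to 1 for MSC against PBS, and 504 to 845 and 46 to 479 for the difference between weeks. With only the groups compared 273 genes were lower than in MSC mice, 0 were higher in MSC than PBS mice, and 38 had a lower effect at 2 days. DESeq2 called 1 gene lower in MSC than PBS mice, and RLE scaling gave 88 genes with a lower effect at 2 days. By library totals without TMM factors 467 genes lay below PBS without overlap. The cause of these shifts was not tested.

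Counts against PBS were otherwise 1789 to 2098 higher and 714 to 1090 lower over DESeq2, limma-voom, RLE scaling, no filter, only the groups compared, the striatal covariate and the replicate block, the last with 1947 and 1073. The mouse number did not pair the samples: same-number correlations of deviations ran from -0.117 to 0.0676, and 2 of 5 IL-4 MSC libraries correlated best with their own number. With the block 1329 and 169 genes differed from MSC, 14 and 0 between MSC and PBS, and 684 and 125 between weeks. Of 146 genes chosen by the naming rule and past the test, 128 stayed past it under every alternative run and 18 did not under at least 1, and 0 of 2864 values changed direction. Of 636 list medians under alternatives 3 moved, all as log2 ratios of mean CPM with 0.5 added: alternative activation 1.34, T cell 0.33 and NK 0.77.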

Other observations

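Gene families that share the stem of their symbol were counted after the values had been seen, leaving out S6 kinases, binding proteins and pseudogenes that only share the stem of the ribosomal, Irf and caspase families, among 289 stems with at least 8 tested genes, and the ranges cover 4 other fits (DESeq2, its size factors in edgeR, and the TMM references with the fewest and most lower genes). Over all genes tested, 1846 to 2196 of 17131 were higher and 538 to 1357 lower in these fits. Of 16 tested Ifi genes, which are interferon-inducible and include DNA sensors, 14 to 15 were higher in IL-4 MSC than in PBS mice with medians of 2.09 to 2.12. Of 11 Gbp genes, GTPases that act on intracellular microbes, 10 were higher in each of these fits (medians 1.38 to 1.41), and of 11 Ms4a genes, membrane proteins of immune cells, 9 were (2.05 to 2.09). Toll-like receptor genes (6 of 11), caspases (8 of 9), annexins (7 of 10) and interferon regulatory factors (7 of 9) were higher by smaller amounts, with medians between 0.42 and 0.78, and 0 of these families' genes were lower.

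Genes of cytosolic ribosomal proteins were higher by little but in large numbers. Of 47 Rpl genes 37 to 40 were higher and 0 lower (medians 0.16 to 0.20), and of 31 Rps genes, paralogs included in both, 25 to 28 were higher and 0 lower (medians 0.18 to 0.22). Many of these have processed copies whose reads are divided with them. F-box genes of the Fbxo stem, which pick proteins for ubiquitin, had 3 to 8 of 35 lower, 0 to 2 higher and medians of -0.05 to -0.01, where 538 to 1357 of all 17131 genes were lower. This stem was picked after the values had been seen. In the main fit 22.9% of its genes were lower, and other stems such as Epha (33.3%) and Abca (30.8%) had larger shares.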
